A study of Mus musculus with 16 samples.

Results

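The 10 genes described here encode transcription factors that set effector, or naive and memory, fate of CD8 T cells, and they were taken by name from a deposited table of gene counts. Tbx21, Eomes, Id2, Prdm1 and Zeb2 stand for the effector side, and Id3, Tcf7, Lef1, Bach2 and Satb1 for the naive and memory side. They are 10 of 54456 gene rows, and all 10 were among the 15675 genes that passed the filter on low counts and were tested. The RNA came from T cells of OT-I mice, a strain with a transgenic receptor for an ovalbumin peptide on MHC class I whose T cells are mostly CD8. The 4 groups were T cells of visceral adipose tissue (VAT) and of lymph nodes (LN) from mice on a high-fat diet (HFD, 60% of calories from fat) for 8 weeks, and VAT and LN T cells from lean mice on standard chow for the same 8 weeks. Each group had 4 libraries, labelled as biological replicates, each from 10000 lysed cells.

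The OT-I receptor is carried by the mice of every group, and no group of wild-type mice was analysed here. The labels do not give the age or sex of the mice or whether a library is 1 mouse or a pool. One field of them calls the cells freshly isolated while another describes overnight culture ahead of sorting, and the table's column names carry the unexplained term Neg-OVA. The p-values therefore measure the spread between these libraries, which may be partly technical.

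CD8 T cells leave the naive state when their receptor is engaged, and most of their progeny become short-lived killers while a smaller part persists as memory. T-bet (Tbx21) and ID2 push cells towards the effector program, with BLIMP1 (Prdm1) and ZEB2 acting in terminal effectors, whereas TCF1 (Tcf7), LEF1, ID3 and BACH2 hold naive, memory and stem-like states. ID proteins bind the E proteins, which recognise the DNA element called the E-box, and keep them off DNA, so the balance of ID2 and ID3 is read as a marker of these fates.

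The start regions of Id2, Tbx21 and Id3 are shown because the VAT and LN libraries of these 3 genes did not overlap and each has a single annotated start in the table used. The sequences are RefSeq windows on GRCm38.p6, 250 bases before to 50 bases after the start, read along the gene's own strand. They lie at chr12:25096043-25096342 (minus strand) for Id2, chr11:97115282-97115581 (minus strand) for Tbx21 and chr4:136143572-136143871 (plus strand) for Id3, and capitals mark each match to the E-box letters CANNTG, which read the same on both strands.
Id2: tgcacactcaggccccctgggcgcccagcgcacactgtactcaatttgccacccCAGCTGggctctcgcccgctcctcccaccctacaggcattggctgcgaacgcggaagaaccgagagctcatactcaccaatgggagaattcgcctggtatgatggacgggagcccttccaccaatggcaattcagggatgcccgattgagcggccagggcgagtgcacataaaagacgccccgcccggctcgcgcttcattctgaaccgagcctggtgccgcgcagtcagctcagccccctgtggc
Tbx21: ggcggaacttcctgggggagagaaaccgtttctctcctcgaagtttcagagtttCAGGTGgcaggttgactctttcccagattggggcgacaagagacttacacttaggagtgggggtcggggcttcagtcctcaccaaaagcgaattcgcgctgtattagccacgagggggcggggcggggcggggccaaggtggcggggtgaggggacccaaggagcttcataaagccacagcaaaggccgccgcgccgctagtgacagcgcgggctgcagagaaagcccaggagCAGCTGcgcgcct
Id3: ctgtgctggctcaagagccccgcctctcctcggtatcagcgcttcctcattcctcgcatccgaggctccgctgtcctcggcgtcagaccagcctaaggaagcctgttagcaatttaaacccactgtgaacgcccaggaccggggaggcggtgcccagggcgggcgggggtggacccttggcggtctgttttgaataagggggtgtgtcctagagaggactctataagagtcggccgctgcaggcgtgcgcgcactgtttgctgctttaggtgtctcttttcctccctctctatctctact
Counting the start as position 0, the Id2 window held 1 E-box match, at -196, the Tbx21 window held 2, at -196 and 37, and the Id3 window held 0. Over the 21 windows of the 10 genes, 13 windows of 6 genes held a match, against 72.3% of all 32851 windows of the same length. Neither the TCF and LEF letters CTTTGAA nor the T-box letters TCACACC, searched on both strands, were found in any of the 21 windows, against 5.14% and 3.98% of all windows. A match describes letters only and is not a measured binding site.

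Library totals were 40212388 to 65957407 counts, so that 3 counts in a library correspond to 0.0437 to 0.0803 normalised CPM (a count relative to its library's TMM-adjusted total, used for every level below). T cell markers summed to 9941 to 10797 CPM in HFD VAT, 8126 to 9277 CPM in HFD LN, 8940 to 11278 CPM in lean VAT and 8055 to 9795 CPM in lean LN libraries. By the test given below, 1 of these 8 markers rose and 1 fell in VAT on each diet (4.56% of all genes passed on HFD and 3.04% in lean mice). Cd8a averaged 2077 CPM in HFD VAT against 665 CPM in HFD LN, and 1840 against 718 CPM in lean mice. Cd8b1 averaged 1228 CPM in HFD VAT against 2072 CPM in HFD LN, and 1368 against 2058 CPM in lean mice. Some libraries lacked more genes than the others. Taking genes whose median in a group's other libraries was 10 CPM or more, 13.1% were at 3 counts or fewer in lean VAT replicate 1, 11.3% in HFD VAT replicate 3 and 11.2% in HFD VAT replicate 1.

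VAT cells had more Id2 and less Tcf7, Lef1 and Satb1 RNA than LN cells, and this held on both diets. On HFD, Id2 was 11.4-fold higher in VAT, and Satb1, Lef1 and Tcf7 were 3.25-fold, 3.06-fold and 1.91-fold lower. In lean mice, Id2 was 11.6-fold higher and Lef1, Satb1 and Tcf7 were 4.20-fold, 2.96-fold and 2.23-fold lower. These 4 of 10 factors passed the test in each comparison, set against 4.56% of all genes tested on HFD and 3.04% in lean mice. By side, 1 of 5 effector factors rose in each comparison (2.68% of all genes rose on HFD and 2.12% in lean mice), and 3 of 5 naive and memory factors fell (1.88% and 0.919% of all genes). A gene passed when its p in the quasi-likelihood test of edgeR, adjusted by Benjamini-Hochberg over all genes tested (adjusted p), was under 0.05. In bulk libraries, fewer cells with a transcript and less of it per cell cannot be told apart.

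**Figure D1:**
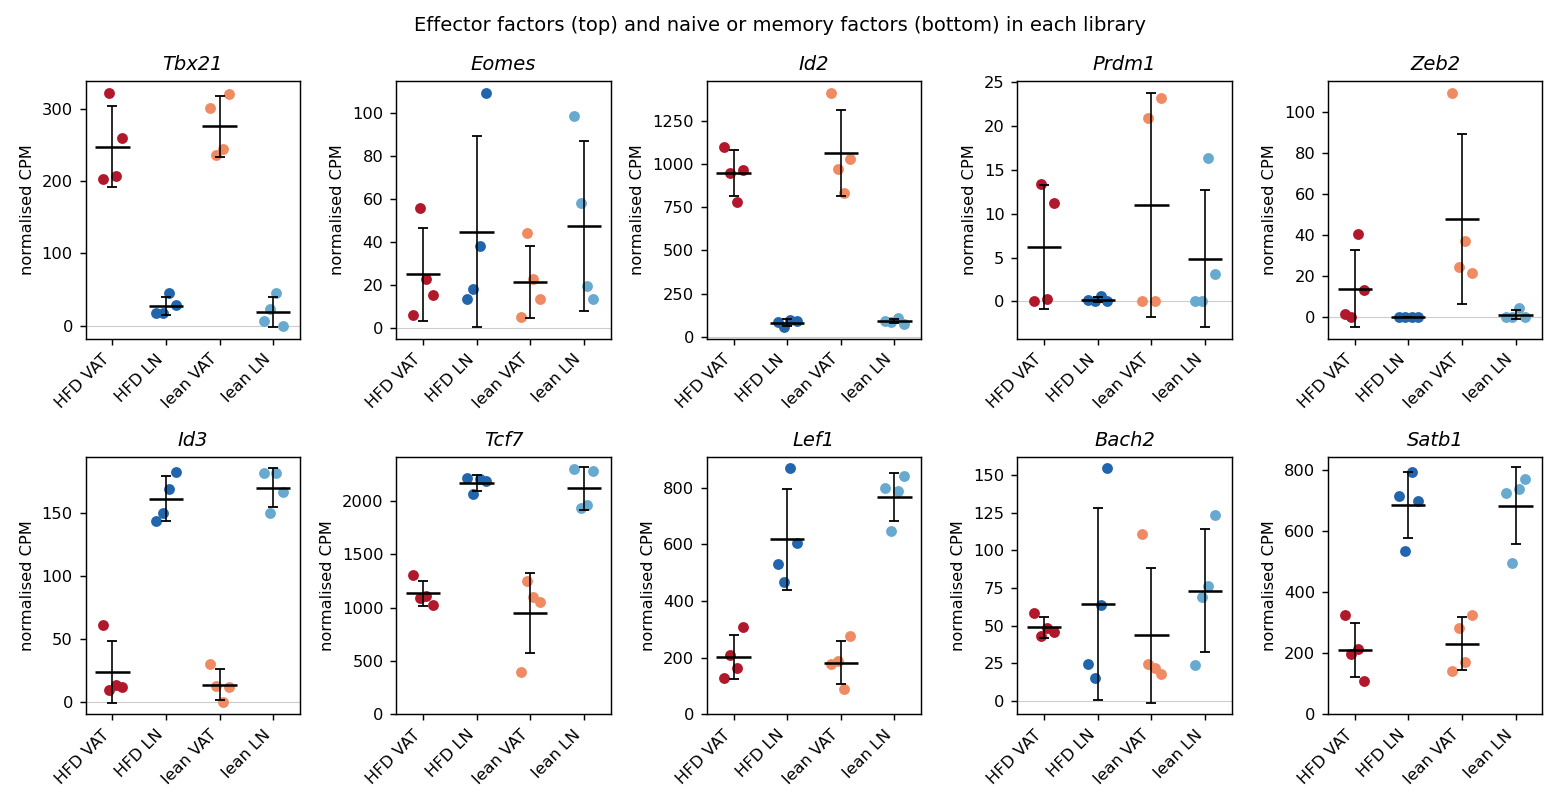
Normalised CPM (y axes, linear) of the 10 factors in each library of the 4 groups, with effector factors in the top row and naive or memory factors in the bottom row. Points are libraries, and bars are the mean ± SD of 4 libraries. Id2 lies at 779 to 1413 CPM in the 8 VAT libraries and at 57.4 to 110 CPM in the 8 LN libraries, while Eomes and Bach2 overlap between all groups.

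Among the effector factors, ID2 is the E protein inhibitor that effector CD8 cells need to survive. Id2 had 1101, 951, 779 and 965 CPM in HFD VAT libraries, against 84.0, 57.4, 99.7 and 90.6 CPM in HFD LN libraries. In lean mice it had 1413, 974, 835 and 1031 CPM in VAT libraries and 93.4, 85.6, 110 and 77.1 CPM in LN libraries. Every VAT library lay above every LN library, with a wide gap and little spread within a group. The log2 fold change was 3.52 ± 0.22 (SE) on HFD (adjusted p = 8.63e-07) and 3.54 ± 0.22 in lean mice (adjusted p = 1.46e-06), and the call held in all 25 alternative analyses of each comparison.

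T-bet, encoded by Tbx21, is the T-box factor that drives interferon gamma and killer genes. Tbx21 had 203, 322, 207 and 259 CPM in HFD VAT libraries, against 17.9, 18.3, 44.8 and 28.6 CPM in HFD LN libraries. Its lean values were 301, 236, 244 and 321 CPM in VAT libraries and 6.57, 23.8, 45.9 and 0 CPM in LN libraries. VAT libraries were high without exception and LN libraries low, yet neither comparison passed, with log2 fold changes of 3.18 ± 1.15 (SE, adjusted p = 0.147) on HFD and 3.85 ± 1.18 (adjusted p = 0.120) in lean mice. Both p-values turned on lean LN replicate 4, the library with no Tbx21 count. Without it the adjusted p was 0.00244 on HFD and 0.00576 in lean mice, and the gene's fitted dispersion was 0.236, against 0.991 with all libraries. Tbx21 also passed with DESeq2 in both comparisons (adjusted p = 0.0211 and 0.00623), with only the HFD groups in the fit (0.00341) and with voom in lean mice (0.0105).

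EOMES is the T-box relative of T-bet and is linked to memory as well as to killer function. Eomes had 6.2, 55.8, 23.1 and 15.6 CPM in HFD VAT libraries, against 13.8, 18.4, 38.1 and 109 CPM in HFD LN libraries. It had 5.27, 44.3, 22.8 and 13.5 CPM in lean VAT libraries and 98.5, 58.3, 19.7 and 13.6 CPM in lean LN libraries. The groups overlapped in both comparisons, and the adjusted p was 0.757 on HFD and 0.762 in lean mice. Its log2 fold change on HFD was -0.83 ± 0.91 (SE), and 0.10 without HFD LN replicate 4, so no direction can be given.

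BLIMP1, encoded by Prdm1, is a repressor of terminal effector cells. Prdm1 was low and uneven, with 0.0654, 13.3, 0.241 and 11.3 CPM in HFD VAT libraries and 0.119, 0.0589, 0.639 and 0 CPM in HFD LN libraries. Lean mice gave 0, 20.8, 0 and 23.2 CPM in VAT libraries and 0.0583, 0.0359, 16.4 and 3.08 CPM in LN libraries. Within VAT, replicates 2 and 4 of each diet carried it and replicates 1 and 3 did not or barely did, so the groups overlapped. It did not pass on HFD (adjusted p = 0.386) or in lean mice (adjusted p = 0.976).

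ZEB2 is a zinc finger factor that acts with T-bet in terminal effectors. Zeb2 had 1.57, 0, 40.3 and 13.4 CPM in HFD VAT libraries, against 0, 0.0393, 0 and 0 CPM in HFD LN libraries, whose 4 libraries held 2 counts together. The ratio of HFD VAT to HFD LN was 1277 (95% counting interval 353 to 10552, counting error only). On standard chow it had 109, 24.1, 36.9 and 21.6 CPM in VAT libraries and 0, 0, 4.62 and 0 CPM in LN libraries. Lean VAT libraries all lay above lean LN libraries, whereas HFD VAT replicate 2 had no count and overlapped with HFD LN. The spread between libraries was large, and the adjusted p was 0.103 on HFD and 0.398 in lean mice, against 0.000927 on HFD with DESeq2 and 0.0150 in lean mice with voom.

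On the naive and memory side, TCF1, encoded by Tcf7, is the factor that marks naive, memory and stem-like CD8 cells. Tcf7 had 1305, 1091, 1107 and 1027 CPM in HFD VAT libraries, against 2218, 2062, 2209 and 2185 CPM in HFD LN libraries. In lean mice it had 398, 1249, 1098 and 1050 CPM in VAT libraries and 2300, 1931, 1957 and 2281 CPM in LN libraries. All VAT libraries were lower than all LN libraries, but the transcript stayed abundant in VAT, with lean VAT replicate 1 below the rest. The log2 fold change was -0.94 ± 0.25 (SE, adjusted p = 0.0455) on HFD and -1.16 ± 0.25 (adjusted p = 0.0178) in lean mice. The HFD call held in 8 of 25 alternatives. It was lost without any 1 of the 8 HFD libraries, of lean VAT replicates 3 and 4 or of the 4 lean LN libraries (adjusted p = 0.0594 to 0.106), while its size stayed between -1.05 and -0.89. RLE scaling (0.0733), no filter (0.0915) and the replicate block (0.107) also ended it. In lean mice the call was lost without LN replicate 1 (0.0575) or 4 (0.0585), with just the lean groups in the fit (0.134) and with the replicate block (0.0560).

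LEF1, the close partner of TCF1, binds the same DNA element. Lef1 had 130, 209, 163 and 307 CPM in HFD VAT libraries, against 532, 466, 870 and 603 CPM in HFD LN libraries. Lean mice showed 178, 188, 90.9 and 275 CPM in VAT libraries and 798, 646, 789 and 840 CPM in LN libraries. VAT libraries were low on both diets and did not reach the LN range. The log2 fold change was -1.61 ± 0.33 (SE, adjusted p = 0.0102) on HFD and -2.07 ± 0.33 (adjusted p = 0.00203) in lean mice. Without the 3 libraries that lacked the most genes, 2 of them HFD VAT, the HFD call was lost (adjusted p = 0.124).

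SATB1 is a chromatin organiser of thymocytes and naive T cells. Satb1 had 325, 198, 214 and 108 CPM in HFD VAT libraries, against 716, 535, 794 and 701 CPM in HFD LN libraries. On standard chow it had 144, 282, 172 and 326 CPM in VAT libraries and 727, 497, 738 and 773 CPM in LN libraries. Again VAT libraries were lower than every LN library. The log2 fold change was -1.70 ± 0.32 (SE, adjusted p = 0.00657) on HFD and -1.57 ± 0.32 (adjusted p = 0.0138) in lean mice, and without lean VAT replicate 3 the lean call was lost (adjusted p = 0.0548).

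ID3 is the other main E protein inhibitor of T cells and is kept in naive and memory cells. Id3 had 61, 9.60, 13.7 and 12 CPM in HFD VAT libraries, against 144, 150, 170 and 183 CPM in HFD LN libraries. In lean mice it had 30.5, 12.6, 0 and 12.2 CPM in VAT libraries and 183, 150, 182 and 167 CPM in LN libraries. The LN libraries agreed closely and all lay above the VAT libraries, yet the log2 fold changes of -2.75 ± 1.15 (SE, adjusted p = 0.209) on HFD and -3.63 ± 1.19 (adjusted p = 0.152) in lean mice did not pass. Lean VAT replicate 3, with no Id3 count, decided this: without it the adjusted p was 0.0146 on HFD and 0.0189 in lean mice, and the fitted dispersion was 0.301, against 0.997 with all libraries. In lean mice Id3 also passed with DESeq2 (0.00659) and voom (0.00500).

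BACH2 is a repressor that restrains effector genes in T cells and is also strongly used by B cells. Bach2 had 58.6, 43.0, 48.2 and 45.7 CPM in HFD VAT libraries, against 24.3, 15.2, 63.8 and 154 CPM in HFD LN libraries. It had 111, 24.5, 21.9 and 17.6 CPM in lean VAT libraries and 24.0, 69.2, 76.0 and 123 CPM in lean LN libraries. HFD VAT libraries were alike, the other groups were spread widely, and all groups overlapped (adjusted p = 0.891 on HFD and 0.876 in lean mice). On HFD its log2 fold change was -0.40 ± 0.75 (SE), but 0.51 without HFD LN replicate 4 and 0.18 with voom. HFD LN replicate 4 and lean LN replicate 4 had the most Bach2 of the LN libraries and the largest sums of B cell markers of their groups, 2468 and 2680 CPM. Across the lean LN libraries, and across the HFD VAT libraries, Bach2 followed the order of these sums. Across HFD LN and across lean VAT libraries it did not. HFD LN replicate 2 had the second largest sum of its group (2047 CPM) and the least Bach2. Lean VAT replicate 1, with 111 CPM of Bach2, had the smallest sum of all (85.7 CPM). The part of B cell RNA in the Bach2 values was not tested.

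Taking the 8 VAT against the 8 LN libraries, 6 of the 10 factors had no overlap, against 5.09% of all genes tested (3.39% higher and 1.7% lower). Tbx21 and Id2 were higher in every VAT library, at 203 to 322 and 779 to 1413 CPM in VAT against 0 to 45.9 and 57.4 to 110 CPM in LN. Id3, Tcf7, Lef1 and Satb1 were lower in every VAT library, and Eomes, Prdm1, Zeb2 and Bach2 overlapped. Within HFD mice the libraries of 2 factors were all higher and of 4 all lower in VAT (7.21% and 8.01% of all genes). Within lean mice, where Zeb2 joined the higher ones, these were 3 and 4 (7.24% and 5.7% of all genes).

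**Figure D2:**
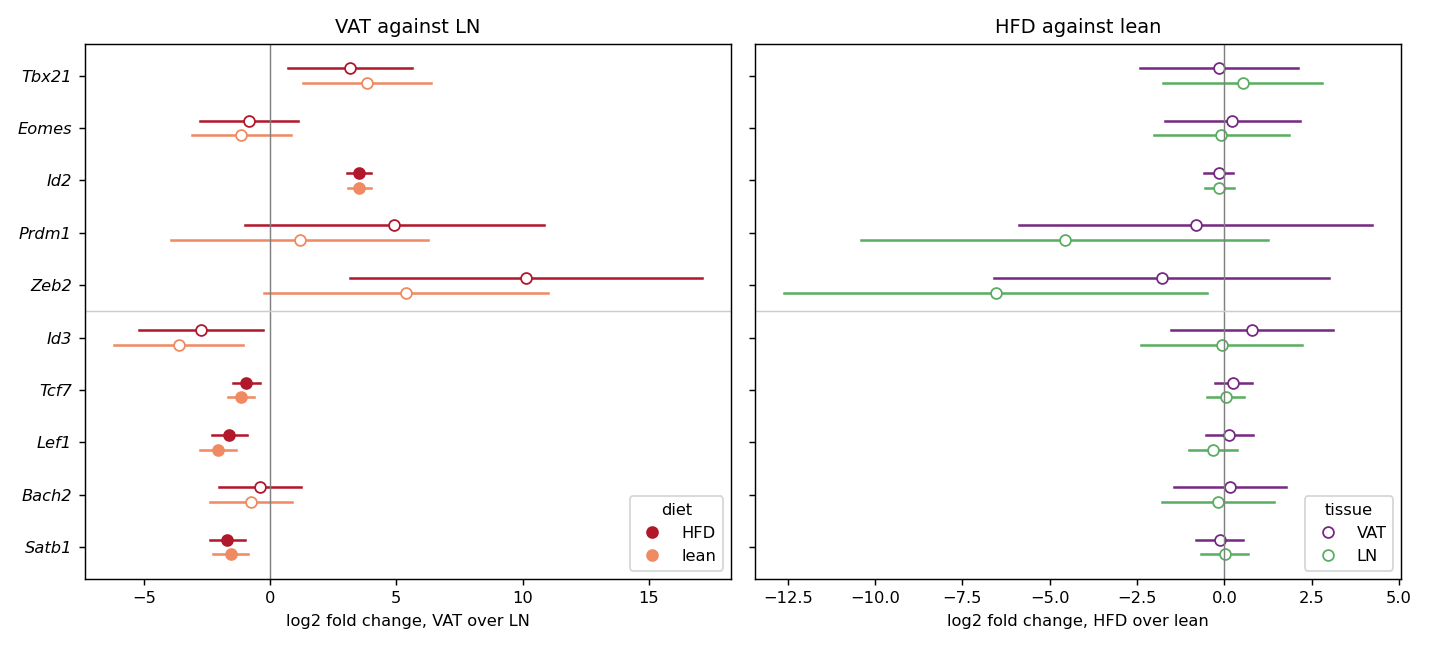
Log2 fold changes of the 10 factors (x axes) between VAT and LN for each diet (left) and between HFD and lean for each tissue (right), with 95% confidence intervals as bars and filled points where the adjusted p was under 0.05. Id2, Tcf7, Lef1 and Satb1 are filled in both tissue comparisons, and no point is filled for diet.

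Ratios of counts within a library put opposing factors side by side without depending on library scaling. They are descriptions, since transcript length and amplification differ between genes. Id2, Id3 and Tcf7 each separated VAT from LN libraries alone. The ratios of Id2 to Id3 and of Tcf7 to Id2 therefore had to separate them and add no further evidence. The ratio of Id2 to Id3 counts was 18.1, 99.0, 57.1 and 80.3 in HFD VAT libraries, against 0.582, 0.381, 0.587 and 0.495 in HFD LN libraries. In lean mice it was 46.4, 77.2, at least 13077 (Id3 set to 3 counts) and 84.7 in VAT libraries and 0.512, 0.569, 0.604 and 0.461 in LN libraries. Every VAT library was above 1 and every LN library below it.

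The ratio of Tbx21 to Eomes counts was 32.7, 5.77, 8.96 and 16.6 in HFD VAT libraries, against 1.30, 0.994, 1.17 and 0.262 in HFD LN libraries. On standard chow it was 57.1, 5.34, 10.7 and 23.8 in VAT libraries and 0.0667, 0.409, 2.33 and at most 0.00413 (Tbx21 set to 3 counts) in LN libraries. The T-box ratio thus lay higher in all VAT than in all LN libraries, as Tbx21 alone did, while Eomes alone overlapped. The ratio of Tcf7 to Id2 counts ran from 1.06 to 1.42 in HFD VAT and from 22.2 to 35.9 in HFD LN libraries. It ran from 0.282 to 1.31 in lean VAT and from 17.8 to 29.6 in lean LN libraries, so here LN libraries were the high ones.

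**Figure D3:**
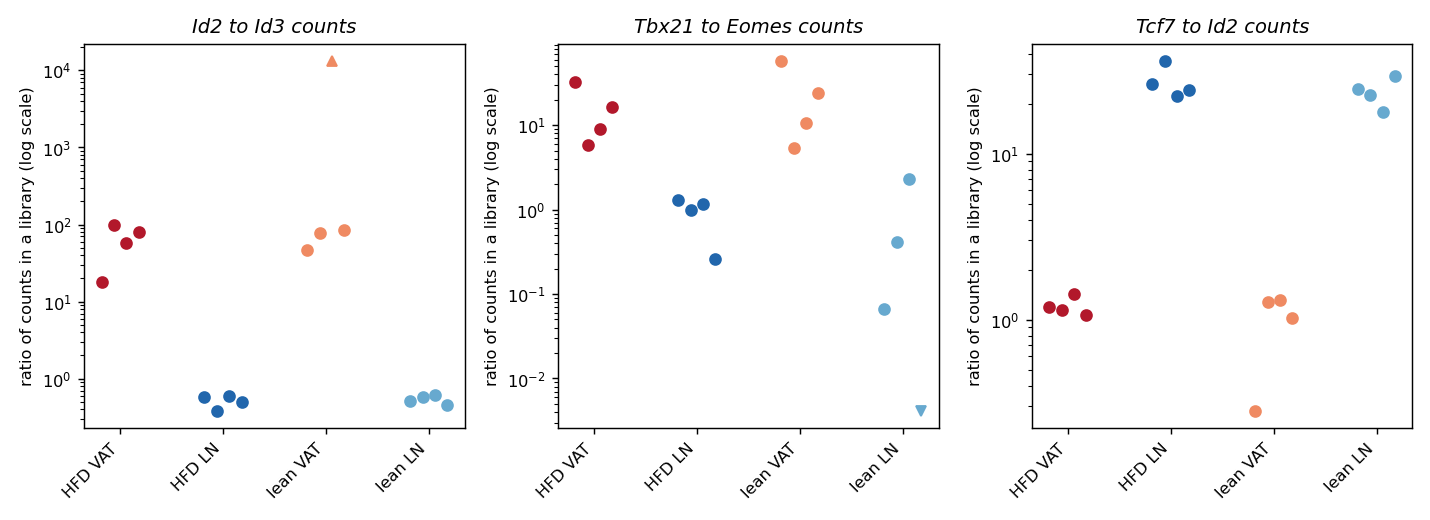
Ratios of counts within a library (y axes, log scale) for Id2 to Id3, Tbx21 to Eomes and Tcf7 to Id2 in the 4 groups, 1 point per library. An upward triangle is a lower bound and a downward triangle an upper bound, where 1 gene had no count and was set to 3. The 8 VAT and 8 LN libraries do not overlap in any panel. For Id2 to Id3 and Tcf7 to Id2 this follows from the levels of the single genes.

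Diet changed none of the 10 factors by this test. In VAT, 0 of 10 passed between HFD and lean mice, where 9 of all genes did (0.0574%), and no factor had an unadjusted p under 0.05. In LN, 0 of 10 passed and 0 of all genes (0.0%). By unadjusted p under 0.05, LN had 529 of all genes and Zeb2 of the 10, and DESeq2 and voom called 236 and 3 genes in LN but none of the 10 factors. All 10 overlapped between diets in VAT and in LN (3.22% and 2.26% of all genes did not overlap). A p that misses the threshold does not show equal levels, and the intervals differed in width.

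The tightest bounds were those of Id2 and Tcf7. For HFD VAT against lean VAT the log2 fold change of Id2 was -0.16 (95% interval -0.59 to 0.26) and that of Tcf7 was 0.26 (-0.27 to 0.78). Lef1 (-0.54 to 0.83) and Satb1 (-0.80 to 0.55) were bounded a little less tightly. The intervals of Tbx21 (-2.42 to 2.11), Eomes (-1.71 to 2.17), Id3 (-1.52 to 3.12) and Bach2 (-1.45 to 1.77) allow more than a 2-fold change either way, and those of Prdm1 (-5.88 to 4.23) and Zeb2 (-6.60 to 3.00) allow far larger ones. For HFD LN against lean LN, Id2 was at -0.14 (-0.56 to 0.28), Tcf7 at 0.034 (-0.49 to 0.56), Satb1 at 0.0060 (-0.67 to 0.68) and Lef1 at -0.31 (-1.0 to 0.37). Zeb2 in LN rested on few counts, 2 in HFD LN and 239 in lean LN, all of the last in replicate 3.

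The difference of the tissue effects, the change from LN to VAT on HFD minus that in lean mice, asks whether diet altered the step between tissues. It passed for 0 of 10 factors (3 of all genes, 0.0191%), none of them with an unadjusted p under 0.05. The difference was -0.021 (95% interval -0.62 to 0.57) on the log2 scale for Id2, 0.22 (-0.52 to 0.96) for Tcf7, 0.46 (-0.51 to 1.42) for Lef1 and -0.14 (-1.09 to 0.82) for Satb1. For Tbx21 it was -0.68 (-3.88 to 2.53) and for Id3 0.88 (-2.39 to 4.14).

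Markers of other cells moved with tissue beside these factors. For the counts of markers that follow, 4.56% of all genes tested passed on HFD and 3.04% in lean mice. NK cell and ILC1 markers, whose cells also use Id2, Tbx21, Eomes and Zeb2, summed to 702 to 778 CPM in HFD VAT against 3.60 to 21.5 CPM in HFD LN, and to 368 to 683 CPM in lean VAT against 0.162 to 35.0 CPM in lean LN. All 7 such markers tested had higher fitted levels in VAT on each diet, and 1 passed, the lectin-like receptor Klre1, which effector CD8 cells also carry. The Klre1 call held in 22 of 25 alternatives on HFD, lost without HFD LN replicate 3 (adjusted p = 0.0615), with the replicate block (0.0504) and without the 3 libraries that lacked the most genes (0.0617). In lean mice it held in 20 of 25, lost without lean LN replicates 1, 3 or 4 (0.0555 to 0.0780), with the block (0.0658) and without the 3 libraries (0.0550). Of the others, Fcer1g, a signalling chain of NK and myeloid receptors, had 199 ± 38.9 CPM in HFD VAT against 4.54 ± 4.10 CPM in HFD LN (adjusted p = 0.0808). Klrb1c, the NK1.1 receptor, had 50.2 ± 31.6 CPM in HFD VAT against 0.840 ± 1.68 CPM in HFD LN (adjusted p = 0.283). Ncr1, the receptor NKp46, was under 1 CPM in every library.

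B and plasma cell markers summed to 169 to 360 CPM in HFD VAT against 1608 to 2468 CPM in HFD LN, and to 85.7 to 225 CPM in lean VAT against 1495 to 2680 CPM in lean LN. Of 10 tested, 6 fell on HFD and 5 in lean mice. Macrophage markers summed to 33.4 to 131 CPM in HFD VAT against 0.0638 to 2.43 CPM in HFD LN, and to 27.5 to 78.7 CPM in lean VAT against 0.0437 to 6.13 CPM in lean LN. Most of that sum was Cd68, a lysosomal protein gene, with 60.9 ± 47.8 CPM in HFD VAT against 0.600 ± 1.17 CPM in HFD LN (adjusted p = 0.144), and 38.8 ± 27.0 CPM in lean VAT against 1.58 ± 2.99 CPM in lean LN (0.371). C1qa was at 0 and Adgre1 under 1 CPM in every library. Other macrophage markers appeared in single VAT libraries. C1qb reached 25.7 CPM and Csf1r 9.73 CPM in HFD VAT, and Lyz2 reached 16.1 CPM in HFD VAT and 17.8 CPM in lean VAT. C1qb and Lyz2 had no count in LN libraries.

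Dendritic cell markers summed to 59.8 to 110 CPM in HFD VAT against 0.460 to 16.8 CPM in HFD LN, and to 35.1 to 82.5 CPM in lean VAT against 0.193 to 22.3 CPM in lean LN, and 0 of 5 tested passed. Most of the VAT sums was Itgax (64.9 ± 32.5 CPM on HFD and 32.6 ± 24.0 CPM in lean mice) and Xcr1 (23.1 ± 21.3 and 24.7 ± 12.8 CPM). Flt3 had no count in HFD VAT against 3.62 ± 4.19 CPM in HFD LN, and Cd209a and Siglech were under 1 CPM in every library. Markers of CD4 and regulatory T cells summed to 113 to 131 CPM in HFD VAT against 21.8 to 41.3 CPM in HFD LN, and to 73.3 to 105 CPM in lean VAT against 25.5 to 69.1 CPM in lean LN. Most of the VAT sums was Ctla4, with 120 ± 7.67 CPM in HFD VAT against 7.38 ± 8.53 CPM in HFD LN. In lean mice Ctla4 had 77.2 ± 17.2 CPM in VAT against 9.44 ± 18.1 CPM in LN. Cd4 averaged 0.0228 CPM in HFD VAT and 0.0060 CPM in lean VAT, and Foxp3 was under 1 CPM in every library. Of 3 tested, Cd40lg, the CD40 ligand, fell on HFD, with no count in HFD VAT against 27.7 ± 8.37 CPM in HFD LN (adjusted p = 0.00358). Zbtb7b, a factor of the CD4 lineage, rose in lean mice to 9.79 ± 11.2 CPM in VAT against 0.261 ± 0.0817 CPM in LN (adjusted p = 0.0196), a call lost without any 1 lean LN library (0.0589 to 0.0888), without a filter (0.140) and with the replicate block (0.0778). Gamma-delta T cell markers summed to 437 to 615 CPM in HFD VAT against 250 to 439 CPM in HFD LN, which overlapped, and to 433 to 542 CPM in lean VAT against 211 to 298 CPM in lean LN. Of 5 tested, 1 rose, in lean mice: Trdc, the delta chain constant region, with 321 ± 39.5 CPM in VAT against 202 ± 23.8 CPM in LN (adjusted p = 0.0361), a call that held in 10 of 25 alternatives. It was lost without lean VAT replicates 1, 3 or 4, any lean LN replicate, HFD VAT replicates 2 or 3 or HFD LN replicate 1 (0.0501 to 0.135). Trdv4 differed more but did not pass, with 61.7 ± 22.4 CPM in HFD VAT against 4.32 ± 3.40 CPM in HFD LN. In lean mice Trdv4 had 89.3 ± 38.8 CPM in VAT against 5.72 ± 5.37 CPM in LN. Of the 5 gamma-delta markers, 3 had higher and 2 lower fitted levels in VAT on HFD, and 4 higher and 1 lower in lean mice. Neutrophil markers summed to at most 0.204 CPM, and stroma and fat markers to 45.5 to 139 CPM in HFD VAT against 124 to 205 CPM in HFD LN and to 29.5 to 79.4 CPM in lean VAT against 71.3 to 168 CPM in lean LN. Most of the stroma and fat sums was Pecam1, with 65.7 ± 25.9 CPM in HFD VAT against 159 ± 34.8 CPM in HFD LN. In lean mice Pecam1 had 47.0 ± 15.9 CPM in VAT against 113 ± 41.8 CPM in LN. Of these 12 markers, 8 were under 1 CPM in every library, among them Adipoq, Plin1, Fabp4 and Pdgfra. The part of such cells in the tissue differences was not tested.

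The named factors act with partners. Of the E proteins and other ID genes, 4 of 5 were tested and 0 passed in either comparison, where 4.56% (HFD) and 3.04% (lean) of all genes tested did. The E protein genes Tcf3 (58.9 ± 61 CPM in HFD VAT against 127 ± 24.3 CPM in HFD LN) and Tcf12 (42.1 ± 24.7 against 73.8 ± 19.4 CPM) had adjusted p of 0.585 and 0.448 on HFD. Of 10 TCF and LEF cofactors, 0 passed on HFD and 1 fell in lean mice: the Groucho corepressor gene Tle1, with 2 counts in the 4 lean VAT libraries against 55.9 ± 20.8 CPM in lean LN (ratio of LN to VAT 5417, 95% counting interval 1499 to 44732). Its adjusted p of 0.0231 was lost without any 1 lean VAT library or without lean LN replicate 4 (0.0502 to 0.0841), and on HFD it had 10.6 ± 20.9 CPM in VAT against 40.6 ± 25.6 CPM in LN. Tle5 (361 ± 57.5 CPM in HFD VAT against 361 ± 39.3 CPM in HFD LN) and the deacetylase gene Hdac1 (230 ± 30.5 against 180 ± 63.8 CPM) did not pass.

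Of 18 other effector-linked factors, 2 rose and 0 fell on HFD and 0 passed in lean mice, with medians of the log2 fold change of 0.83 and 0.92 against -0.098 and -0.0029 over all genes tested. Of all genes tested, 2.68% rose and 1.88% fell on HFD, and 3.04% passed in lean mice. Rbpj, the DNA-binding partner of Notch, had 90.3 ± 19.0 CPM in HFD VAT against 11.9 ± 6.84 CPM in HFD LN (log2 fold change 2.93, adjusted p = 0.0101). Rora, a nuclear receptor also found in innate lymphoid cells, had 234 ± 78.5 CPM in HFD VAT against 36.8 ± 16.3 CPM in HFD LN (adjusted p = 0.0292). Its call was lost without HFD VAT replicates 1, 3 or 4 or any HFD LN replicate (0.0508 to 0.0781), and in lean mice Rora had 251 ± 79.3 CPM in VAT against 44.6 ± 41.9 CPM in LN (adjusted p = 0.0522). Stat4 and Stat5b, which transmit IL-12 and IL-2 signals, did not pass (adjusted p on HFD 0.528 and 0.916).

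Of 17 other naive and memory factors tested, 1 rose and 2 fell on HFD, and 1 rose and 3 fell in lean mice, with medians of -0.49 and -0.61. Of all genes tested, 2.68% rose and 1.88% fell on HFD, and 2.12% rose and 0.919% fell in lean mice. Klf2, an activator of homing and egress genes, and its relative Klf3 fell on both diets. Klf2 had 199 ± 31.0 CPM in HFD VAT against 954 ± 160 CPM in HFD LN, and 236 ± 93.5 CPM in lean VAT against 914 ± 128 CPM in lean LN (adjusted p = 0.000105 and 0.00041). Klf3 was 4.89-fold and 4.35-fold lower (adjusted p = 0.00129 and 0.00265). Stat3, which supports memory downstream of IL-10 and IL-21, went against its list and rose, with 1045 ± 218 CPM in HFD VAT against 238 ± 33.0 CPM in HFD LN and 850 ± 89.1 CPM in lean VAT against 246 ± 54.5 CPM in lean LN (adjusted p = 1.43e-05 and 6.94e-05). Foxp1, a keeper of quiescence, fell in lean mice (194 ± 30.2 CPM in VAT against 445 ± 166 CPM in LN, adjusted p = 0.0320), a call lost without lean VAT replicates 1, 2 or 3 or lean LN replicates 1, 3 or 4 (0.0728 to 0.113). Ets1 and Bcl11b, both needed for T cell identity, did not pass.

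Genes known to lie downstream of these factors were counted in the same way. Of 14 genes downstream of effector factors, 6 rose and 0 fell on HFD and 5 rose and 0 fell in lean mice, with medians of the log2 fold change of 3.05 and 3.60 (2.68% and 2.12% of all genes rose). DESeq2 called 10 and 9 of them, and voom 9 in lean mice. These tools also called more of all genes in either direction, 2578 and 1569 with DESeq2 and 1373 with voom in lean mice. Il2rb, the IL-2 and IL-15 receptor chain induced by T-box factors, had 1089 ± 268 CPM in HFD VAT against 307 ± 55.7 CPM in HFD LN, and 1216 ± 139 CPM in lean VAT against 240 ± 56.2 CPM in lean LN (adjusted p = 0.000139 and 3.18e-05). Il12rb2, the IL-12 receptor chain linked to T-bet, had 239 ± 28.5 CPM in HFD VAT against 1 count in HFD LN (adjusted p = 0.00145), and 226 ± 75.9 CPM in lean VAT against 3.41 ± 4.30 CPM in lean LN (adjusted p = 0.0552). Fasl, the death ligand, passed in lean mice (365 ± 20.1 CPM in VAT against 5.74 ± 3.94 CPM in LN, adjusted p = 0.0264), but not without lean VAT replicates 2, 3 or 4 or any lean LN replicate (0.0526 to 0.104). Klrg1, a receptor of short-lived effectors, passed on HFD (54.7 ± 69.4 CPM in VAT against 0.0506 ± 0.0233 CPM in LN, adjusted p = 0.0344), and its adjusted p was 0.0508 to 0.104 without HFD VAT replicates 2 or 3, any HFD LN replicate or lean VAT replicates 2, 3 or 4. Klrd1, the CD94 chain, did not pass, at 701 ± 73.9 CPM in HFD VAT against 694 ± 83.9 CPM in HFD LN.

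Of 14 genes downstream of naive and memory factors, 7 fell and 0 rose in each comparison, with medians of -1.94 on HFD and -2.43 in lean mice (1.88% and 0.919% of all genes fell). On HFD 4 fell without HFD VAT replicate 1, without HFD LN replicates 1, 2 or 4, or with the replicate block. S1pr1, the egress receptor under KLF2, was 4.47-fold lower on HFD and 5.81-fold lower in lean mice (adjusted p = 0.000606 and 0.000277). Slamf6, a surface marker of TCF1-positive cells, had 118 ± 45.1 CPM in HFD VAT against 399 ± 84.6 CPM in HFD LN (adjusted p = 0.0240), lost without HFD VAT replicates 1, 3 or 4 or HFD LN replicates 1, 2 or 4 (0.0548 to 0.0710), and 73.7 ± 41.5 CPM in lean VAT against 425 ± 111 CPM in lean LN (adjusted p = 0.00276). Il6ra, the IL-6 receptor chain, fell on HFD to 0.686 ± 1.10 CPM in VAT against 53.5 ± 16.9 CPM in LN (adjusted p = 0.0375), a call that held in 8 of 25 alternatives and was lost without HFD VAT replicates 1, 2 or 3, any HFD LN or lean LN replicate, or lean VAT replicates 2 or 4 (0.0542 to 0.10). In lean mice Il6ra did not pass.

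**Figure D4:**
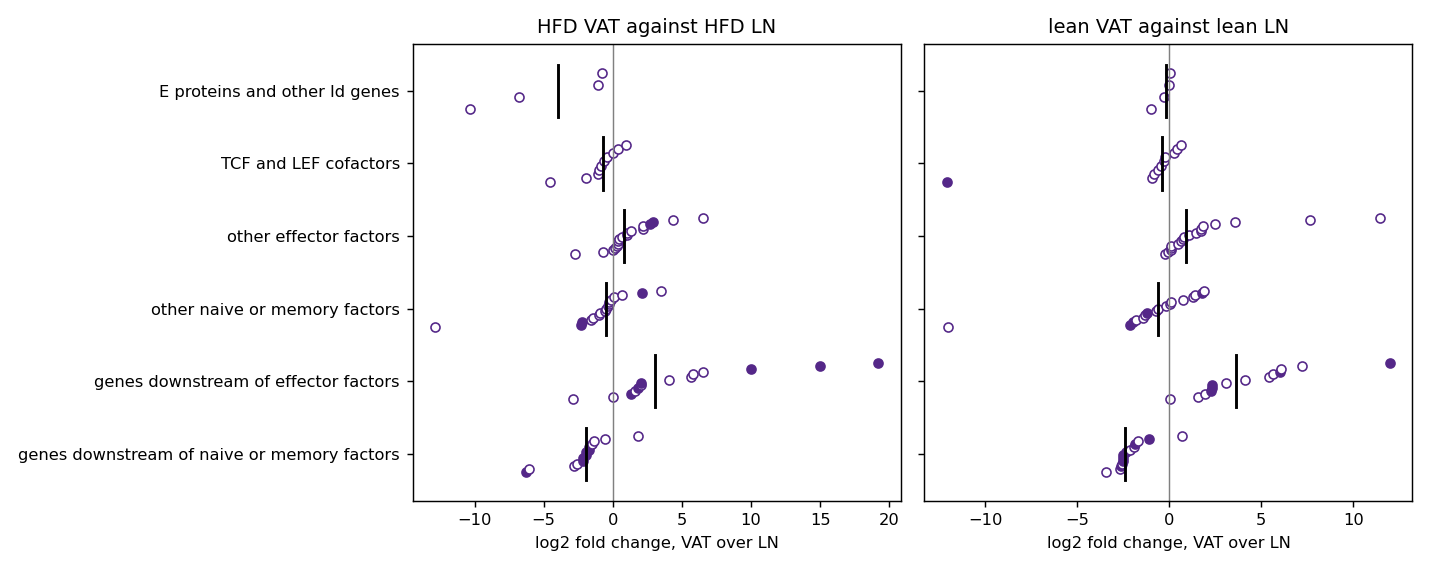
Log2 fold changes between VAT and LN (x axes) of the tested genes of 6 lists on HFD (left) and in lean mice (right). Each point is a gene, filled where the adjusted p was under 0.05, and the vertical bar is the list's median. The 2 downstream lists have medians of 3.05 and -1.94 on HFD and 3.60 and -2.43 in lean mice.

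The genes whose pattern over the 16 libraries was most like that of each factor were found by the root mean square difference of log2(CPM + 1), each gene centred on its own mean, among 8183 or 8184 genes with a mean of at least 10 CPM. The libraries share depth and composition, so likeness is a description. Tcf7 was closest to Xrn2 (0.201), an RNA exonuclease gene, and Jak1 (0.232), a cytokine receptor kinase gene. Lef1 was closest to Ccr7 (0.380), the lymph node homing receptor, and to Klf2 (0.426), and Satb1 to Ppcdc (0.389) and Atp1b3 (0.409).

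Id2 was closest to Plac8 (0.42), with 1824 ± 202 CPM in HFD VAT against 164 ± 51.3 CPM in HFD LN, and to the galectin-binding protein gene Lgals3bp (0.429), with 1236 ± 204 CPM in HFD VAT against 66.3 ± 23.0 CPM in HFD LN. Tbx21 was closest to Abcb1a (0.759), a drug efflux pump gene, and Cd200r4 (0.781), and Id3 to Tmem108 (1.04) and Dapl1 (1.13). The nearest genes of the others were Rabep1 for Eomes (0.772), Ldlrad4 for Bach2 (0.728), Fosl2 for Zeb2 (1.17) and Ptpn9 for Prdm1 (1.18). The factors' own root mean square on this measure was 0.664 for Tcf7, 1.04 for Lef1, 0.945 for Satb1, 1.78 for Id2, 2.35 for Tbx21, 2.17 for Id3, 1.18 for Eomes, 0.979 for Bach2, 2.42 for Zeb2 and 1.84 for Prdm1, so these distances are to be read against different spreads.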

How the data were processed

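The authors deposited raw counts per gene, whole numbers with no normalisation, for 16 libraries. Per the submitters' processing notes, kallisto 0.42.4, DESeq2 and the build GRCh38 were used. That build is human while the gene names are those of mouse, and how kallisto's estimates became whole counts is not given in the sources used here. The labels also describe human fibroblast culture, and they name both a SMART-Seq v4 kit with NovaSeq and a Smart-seq2 protocol with MiSeq, so chemistry and read length are not certain. Strand is not given, so overlapping and antisense genes cannot be separated. Reads from PCR-amplified cDNA are not independent molecules, and intervals and floors from counts cover counting error only.

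From the counts, all 16 libraries were fitted together with 1 mean per group by edgeR 4.0.16 in R 4.3.3 (filterByExpr with the 4 groups, TMM, robust quasi-likelihood F-test, common dispersion 1.52, Benjamini-Hochberg adjustment over 15675 genes, threshold 0.05). Standard errors are the log2 fold change divided by the root of F, which makes the 95% intervals approximate. Levels are CPM with TMM library sizes. No 2 libraries of a group agreed within sampling noise (chi-square over degrees of freedom 288.5 to 1069). The named genes are the 10 factors, the 2 genes of most similar pattern for each, and from each list up to 5 genes that passed in a tissue comparison and up to 2 of highest mean that did not, of which the text gives a part, and some of which are not reported here. The factors and lists were chosen with earlier results of these data known, so they are no independent support. The list of cofactors holds 11 names for 10 genes, since Aes is an older symbol of Tle5. Python 3.11.15, NumPy 2.4.6 and pandas 2.3.3 handled tables, SciPy 1.17.1 the intervals and Matplotlib 3.10.9 the plots. The fits were tested on simulated data. Alternatives were RLE and upper quartile scaling, no filter, at least 5 CPM in 4 libraries, the Wald test of DESeq2 1.42.0, voom of limma 3.58.1 with quality weights, fits of just the compared groups, a replicate block and leaving out each library. A fit without the 3 libraries that lacked the most genes was added after seeing the data.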

Additional observations from a re-analysis of the deposited data

Results flagged for a closer look

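Of 40 groups of 4 libraries (10 factors in 4 groups), 5 held a library that stood apart from the other 3 by Dixon's criterion. Chance alone meets it in about 1 group in 20 only where values are normally distributed, which sparse counts need not be. A group with 0 in all libraries but 1, such as Zeb2 in LN, meets it at any level. The 5 groups therefore cannot be set against that rate. Id3 in HFD VAT replicate 1 was 61 CPM, with 9.60 to 13.7 CPM in the other HFD VAT libraries, and all 4 stayed below every HFD LN library. Bach2 in lean VAT replicate 1 was 111 CPM, with 17.6 to 24.5 CPM in the other lean VAT libraries. Both are among the 3 libraries that lacked the most genes, and the part of that in these values was not tested. Satb1 in lean LN replicate 2 was 497 CPM, with 727 to 773 CPM in the other lean LN libraries. Zeb2 stood at 4.62 CPM in lean LN replicate 3 and at 0.0393 CPM in HFD LN replicate 2, and at 0 in the other libraries of these groups, the second being 2 counts.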

How the results depend on the processing

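In all 25 alternatives for each tissue comparison Id2 kept its direction and call, and Satb1 on HFD and Lef1 in lean mice kept theirs. No factor changed sign between tissues in lean mice. Called factors numbered 3 to 4 on either diet when 1 library was left out, 6 on either diet with DESeq2, 5 on HFD with only these groups, 7 with voom in lean mice, and 2 in lean mice with the replicate block, where Tcf7 (adjusted p = 0.0560) and Satb1 (0.0562) were lost. The same block left Tcf7 uncalled on HFD (0.107). Same-numbered libraries of different groups had correlations of -0.0786 to 0.0393 over 24 pairs, and 7 of 24 correlated best with their own number. Most of these pairs set an HFD against a lean library, and replicates differed widely. The check therefore cannot decide whether equal numbers mark shared mice or batches.

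Genes called between tissues on HFD were 441 without a filter and 2578 with DESeq2, and in lean mice 1569 with DESeq2 and 1373 with voom. Between diets in VAT they were 2 without a filter, 769 with DESeq2, 32 with voom, 0 with only these groups, 1 with the replicate block, 62 without the 3 libraries that lacked most genes and 3 to 40 without 1 library. In LN they were 236 with DESeq2, 3 with voom and 0 to 1 without 1 library. For the difference of tissue effects they were 1 with upper quartile scaling, without a filter or with the stricter filter, 635 with DESeq2, 6 with voom, 0 with the replicate block, 46 without the 3 libraries and 0 to 24 without 1 library. RLE scaling moved the median log2 value of all genes in that difference to -0.012, against -0.11.

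The sign changes were all among values that never passed, and the cause was not tested. On HFD between tissues they were Bach2 with voom (0.18) and, without 1 library, Eomes (-1.58 to 0.10) and Bach2 (-0.73 to 0.51). Between diets in VAT they were Eomes (-0.20), Prdm1 (0.84) and Tcf7 (-0.033) with voom, Tbx21 (0.14), Id2 (0.032) and Tcf7 (-0.082) without the 3 libraries, and, without 1 library, Id3 (-0.23 to 1.54), Eomes (-0.52 to 0.88), Lef1 (-0.13 to 0.41), Satb1 (-0.41 to 0.091), Id2 (-0.26 to 0.0052) and Bach2 (-0.097 to 1.20). In LN they were Satb1 with RLE scaling or DESeq2 (-0.0079), voom (-0.067) and only these groups (-0.0033), Tcf7 with voom (-0.0011), and, without 1 library, Eomes (-1.01 to 0.55), Bach2 (-1.09 to 0.19), Satb1 (-0.12 to 0.10), Tcf7 (-0.010 to 0.076) and Zeb2 (-8.85 to 2.30).

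For the difference of tissue effects they were Id2 with RLE scaling (0.091), no filter (0.023), DESeq2 (0.091), voom (0.20) and without the 3 libraries (0.18), Tcf7 with voom (-0.032) and without the 3 libraries (-0.11), Eomes with voom (-0.091), and Zeb2 with voom (-2.01) and the replicate block (-1.57). Without 1 library they were Id3 (-0.15 to 1.62), Eomes (-0.43 to 1.26), Id2 (-0.16 to 0.15), Satb1 (-0.42 to 0.088), Tcf7 (-0.029 to 0.39), Zeb2 (-4.08 to 7.05) and Bach2 (-0.0072 to 1.39). By depth, 3 counts in a library are at most 0.0803 CPM, a floor that covers counting error only, and how far sampling of molecules limited the values of low genes was not tested.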
